A study of Mus musculus with 34 samples.

Results

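Mitf, Tfec, Tfeb and Tfe3 encode the MiT/TFE transcription factors, and their chromatin was followed here in mouse monocytes and macrophages. The data described are the regions of H3K27ac (histone H3 acetylated at lysine 27, found at promoters and enhancers in use, and measured by chromatin immunoprecipitation sequencing) that the deposited annotation assigns to 1 of the 4 genes within 100000 bp of a start, and the transcription factor peaks that overlap them. There were 60 such regions among 84647 in the table of Kupffer cells, repopulating liver macrophages and monocytes, with 24 for Mitf, 14 for Tfec, 17 for Tfeb and 5 for Tfe3. There were 74 among 95038 in the table of bone marrow-derived macrophages (BMDM), with 32, 14, 22 and 6 in the same gene order. Each region spans 2000 bp. Many overlap a neighbour (43 and 47 of them), so that they form 32 and 42 separate loci and are not independent. In mm10, Mitf (Entrez gene 17342) spans bases 97807002 to 98021360 of chromosome 6 on the plus strand, and Tfec (21426) spans 16830927 to 16898464 of the same chromosome on the minus strand. Tfeb (21425) spans 47737037 to 47792416 of chromosome 17 and Tfe3 (209446) spans 7762530 to 7775202 of chromosome X, both on the plus strand.

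H3K27ac was measured in 2 libraries per group. Kupffer cells, the resident macrophages of the liver, had no treatment; the sample labels give C57BL/6J mice, while the series text gives Clec4f-Cre/DTR mice, and this was not resolved. Repopulating liver macrophages (RLM) came from Clec4f-cre/Rosa26iDTR mice 24 h after diphtheria toxin, in which Clec4f, a Kupffer cell gene, drives the recombinase that switches on the toxin receptor. Ly6C-high monocytes came from the blood of untreated C57BL/6J mice. BMDM from C57BL/6J mice were cultured for 4 days and received the Notch ligand DLL4 for 24 h or no ligand. The factors were LXR, SMAD4 and RBPJ, a nuclear receptor for oxysterols, the shared SMAD of TGF-beta and BMP signalling, and the DNA-binding partner of Notch. LXR was profiled in untreated Kupffer cells and in C57BL/6J BMDM cultured for 7 days with 18 h of the LXR agonist GW3965. SMAD4 and RBPJ were profiled in untreated Kupffer cell nuclei and in untreated C57BL/6J BMDM cultured for 4 days. The labels give Clec4f-cre mice for all Kupffer cell libraries of the factors, while the headers of the LXR lists name C57B6J mice on a control diet.

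The MiT/TFE proteins are basic helix-loop-helix leucine zipper factors that pair with each other and bind E-box motifs, among them CACGTG, near genes of lysosomes and autophagy. When nutrients are plentiful, the kinase mTORC1 at the lysosome phosphorylates TFEB and TFE3 and holds them in the cytoplasm, and when lysosomes are starved or damaged, the phosphatase calcineurin helps to release them to the nucleus. Mitf is best known in melanocytes, mast cells and osteoclasts, and Tfec is the member found mainly in macrophages. H3K27ac reads the chromatin of these genes, and neither the amount nor the place of the proteins.

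The promoter windows of the first starts of Mitf, Tfec and Tfeb are shown because regions described here lie over them, and that of the melanocyte-type start of Mitf is shown for contrast, since neither table has a region over it. They are the 250 bases before a RefSeq start (GRCm38.p6, the assembly that mm10 names), 5′ to 3′ on the strand of the gene, and capitals mark the motif letters found by the search described after them.
Mitf first start, chr6:97806808-97807057, plus strand: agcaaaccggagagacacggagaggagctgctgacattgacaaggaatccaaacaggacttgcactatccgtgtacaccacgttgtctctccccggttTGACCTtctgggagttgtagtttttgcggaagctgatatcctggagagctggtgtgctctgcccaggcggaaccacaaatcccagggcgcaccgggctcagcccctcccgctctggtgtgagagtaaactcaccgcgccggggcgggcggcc
Mitf melanocyte-type start, chr6:97991533-97991782, plus strand: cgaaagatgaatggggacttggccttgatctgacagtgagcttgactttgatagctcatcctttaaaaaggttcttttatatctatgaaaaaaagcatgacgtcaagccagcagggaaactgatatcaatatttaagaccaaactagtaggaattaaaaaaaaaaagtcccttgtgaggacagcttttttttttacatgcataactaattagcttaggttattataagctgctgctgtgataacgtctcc
Tfec start, chr6:16898442-16898691, minus strand: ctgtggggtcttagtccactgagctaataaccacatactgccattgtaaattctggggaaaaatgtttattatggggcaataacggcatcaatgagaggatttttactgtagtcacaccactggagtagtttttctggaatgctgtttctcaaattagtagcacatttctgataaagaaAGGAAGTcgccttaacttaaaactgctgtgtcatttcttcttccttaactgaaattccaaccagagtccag
Tfeb first start, chr17:47736787-47737036, plus strand: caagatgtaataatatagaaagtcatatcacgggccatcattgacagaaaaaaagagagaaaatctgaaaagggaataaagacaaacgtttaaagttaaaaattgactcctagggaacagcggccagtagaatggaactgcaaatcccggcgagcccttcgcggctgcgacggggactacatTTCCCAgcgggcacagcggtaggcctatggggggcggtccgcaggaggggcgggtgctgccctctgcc

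Both strands were searched for the palindromic E-box CACGTG that MiT/TFE proteins bind and for its related form CATGTG. The motif of RBPJ was written TGGGAA, that of SMAD proteins was written CAGACA, and the half-site of nuclear receptors such as LXR was written AGGTCA. The ETS motif bound by PU.1 in macrophages was written AGGAAGT, and the AP-1 motif was written TGAGTCA together with its reverse complement. AGGTCA stood in reverse 152 bases before the first start of Mitf, at 97806906 to 97806911 on chromosome 6, and 14% of 32851 promoter windows of this length held it. TGGGAA stood in reverse 68 bases before the first start of Tfeb, and 21.6% of windows held it. AGGAAGT stood 71 bases before the start of Tfec, and 7.69% held it. CAGACA stood 97 and 93 bases before the second start of Mitf and 200 bases before the third start of Tfeb, in windows not printed here. Of all windows, 17.1% held it. The third start of Mitf, the melanocyte-type one, held none of the searched letters in this window. Neither did the window of the second start of Tfeb or either window of Tfe3. These matches describe letters and do not show that a factor binds there.

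Summed over the regions of a gene, H3K27ac was higher in Kupffer cells than in RLM or monocytes for Mitf and Tfec. The sum was less than 2-fold higher for Tfeb, and for Tfe3 no difference of the sum passed the test. Levels are CPM, counts scaled to 1 M of the TMM-scaled library total (M, mega), summed for a gene over its regions. Tags where regions overlap enter such a sum more than once. A difference was called at an adjusted p under 0.05 and at least 2-fold, from edgeR's quasi-likelihood test with Benjamini-Hochberg adjustment over all tested features. Mitf had 478 and 503 CPM in the Kupffer cell libraries, against 155 and 161 CPM in RLM and 158 and 172 CPM in monocytes. Both Kupffer cell libraries lay far above the other 4, and the RLM and monocyte libraries overlapped. The log2 difference of Mitf was 1.63 (SE 0.15, adjusted p = 6.55e-11) from RLM and 1.57 (SE 0.15, adjusted p = 5.62e-11) from monocytes. Tfec, the macrophage member, had 191 and 211 CPM in Kupffer cells, against 92.0 and 72.9 CPM in RLM and 81.1 and 77.6 CPM in monocytes. Its Kupffer cell libraries also stood apart from the other 4. Tfec differed by 1.29 (SE 0.16, adjusted p = 5.89e-08) from RLM and by 1.34 (SE 0.16, adjusted p = 1.35e-08) from monocytes on the log2 scale. With total tags in place of TMM, Tfec against RLM came to 0.96, below the fold minimum.

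Tfeb, the best studied regulator of lysosome formation, had 523 and 513 CPM in Kupffer cells, against 301 and 297 CPM in RLM and 267 and 267 CPM in monocytes. The groups did not overlap, but the log2 differences of Kupffer cells, 0.79 (SE 0.14, adjusted p = 2.3e-05) from RLM and 0.96 (SE 0.14, adjusted p = 7.66e-07) from monocytes, stayed under 2-fold. That from monocytes passed 2-fold with regions within 10000 bp and with non-overlapping regions. Tfe3, which shares most of its targets with Tfeb, had 102 and 122 CPM in Kupffer cells, against 96.8 and 98.1 CPM in RLM and 108 and 97.0 CPM in monocytes. Its log2 differences in Kupffer cells were 0.20 (SE 0.16, adjusted p = 0.311) from RLM and 0.13 (SE 0.16, adjusted p = 0.512) from monocytes. RLM against monocytes gave log2 differences of -0.06 for Mitf, 0.05 for Tfec, 0.16 for Tfeb and -0.07 for Tfe3, with edgeR adjusted p from 0.411 to 0.838. At gene level, Mitf and Tfec were thus the called genes, higher in Kupffer cells in each comparison, where 14.6% of 16749 tested genes were called higher and 12.8% lower against RLM, and 18.4% and 14.4% against monocytes. Between RLM and monocytes edgeR and DESeq2 called 0 of the 4, with 0 at an unadjusted p under 0.05, where 6.2% of genes were called higher and 5.8% lower. Sums of different genes rest on different numbers of regions and are not compared with each other.

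**Figure D1:**
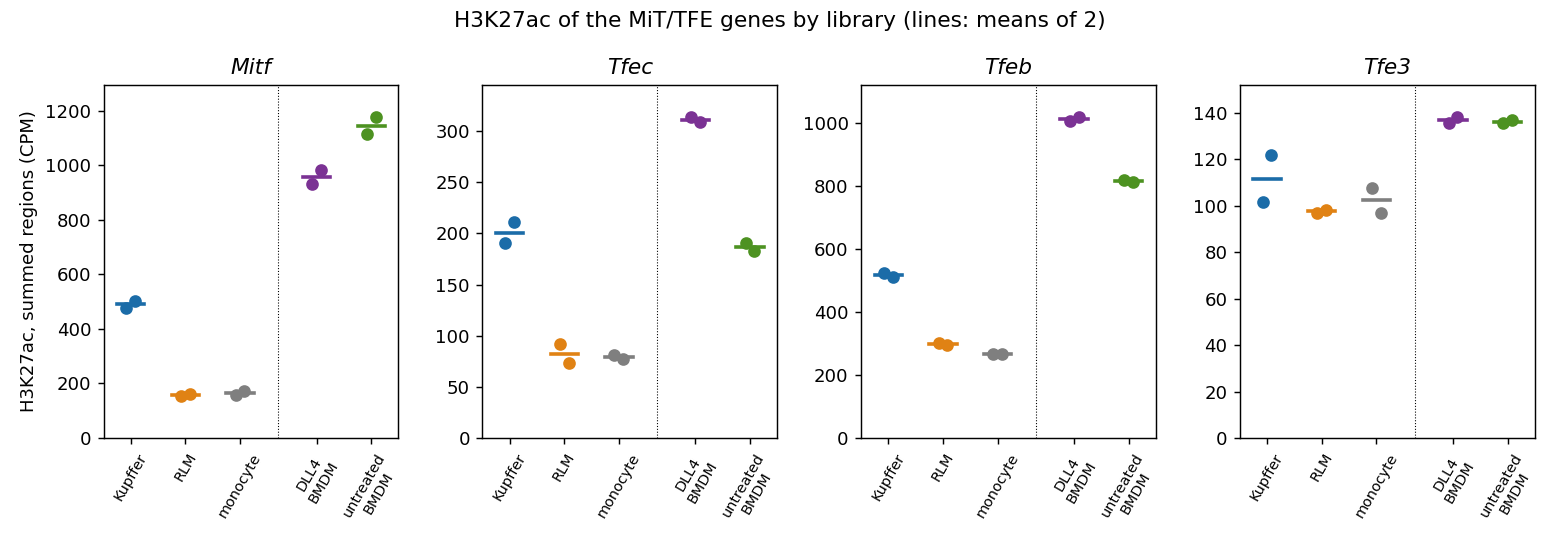
H3K27ac summed over the regions of each gene (CPM, linear axis from 0) in each library, with points for the 2 libraries and lines for their mean. Left of the dotted line are Kupffer cells, RLM and monocytes, and right of it BMDM with DLL4 and untreated BMDM, from a separately counted and scaled table; Mitf and Tfec stand highest in Kupffer cells among the first 3 groups, and Tfec is higher with DLL4 in both libraries.

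As a check of the labels, all 12 Kupffer cell marker genes were called higher in Kupffer cells than in either other group, and of 10 monocyte markers 6 were called lower and 2 higher in Kupffer cells in each comparison. The summed level of the liver endothelial list (7 of 8 genes with regions) was 194 to 197 CPM in Kupffer cells, 108 to 115 CPM in RLM and 82.0 to 91.2 CPM in monocytes. Its members went both ways: against RLM, Stab2 was called higher (2.47, SE 0.21) and Kdr and Tek lower, with a list median of -0.79, and against monocytes 3 were called higher and 2 lower, with a median of -1.08. The sum of the hepatocyte list (3 of 8) was 48.1 to 50.7 CPM in Kupffer cells, 19.1 to 20.3 CPM in RLM and 15.8 to 17.1 CPM in monocytes, and Ttr was its 1 called gene (2.48, SE 0.27, from RLM and 4.00, SE 0.29, from monocytes; list medians -0.08 and 0.52). The stellate cell list (2 of 8) summed to 47.7 to 55.2 CPM in Kupffer cells, 13.1 to 18.1 CPM in RLM and 20.6 to 33.0 CPM in monocytes, with Ecm1 called higher by 2.63 (SE 0.30) and 2.28 (SE 0.28). The neutrophil list (8 of 9) summed to 50.1 to 55.3 CPM in Kupffer cells, 48.0 to 48.5 CPM in RLM and 54.3 to 54.9 CPM in monocytes. Its members went both ways, and Elane was called higher in Kupffer cells (2.49, SE 0.38, from RLM and 1.96, SE 0.36, from monocytes). S100a9, Ly6g, Mpo and Cxcr2 were called lower in each comparison, with list medians of -0.78 and -1.04. The lymphocyte list (2 of 8) summed to 17.1 to 19.0 CPM in Kupffer cells, 12.4 to 15.3 CPM in RLM and 14.6 to 15.6 CPM in monocytes. The mast cell and basophil list (5 of 10, not tested for Fcer1a, Mcpt4, Mcpt8, Ms4a2 and Tpsb2) summed to 21.4 CPM in both Kupffer cell libraries, 24.8 to 24.9 CPM in RLM and 65.4 to 73.9 CPM in monocytes. Tyr, Sox10 and Slc45a2, of the melanocyte list (5 of 8), had no assigned region in these 3 groups and were not tested. The list summed to 55.7 to 60.1 CPM in Kupffer cells, 35.7 to 52.4 CPM in RLM and 78.9 to 90.4 CPM in monocytes. In Kupffer cells, Mc1r was called lower than in RLM and Mlana higher than in monocytes, with list medians of -1.06 and -0.69. The part of other cell types in the result was not tested, and a larger share of cells of a type and more acetylation per cell cannot be told apart. Whether the libraries of a group stem from different mice or dishes is not stated in the labels, so the p-values reflect library-to-library spread that could be technical. Libraries held 7.37 to 19.5 M tags in regions in the first table and 20.2 to 27.2 M in the second.

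Of the regions of the 4 genes, 57 of 60 passed the filter on low counts. Against RLM, 33 of these 57 were called higher in Kupffer cells and 1 lower, where 22.3% of all 80982 tested regions were called higher and 13.9% lower. Against monocytes, 28 were called higher and 1 lower, where 24.9% and 17.7% of all regions were. Between RLM and monocytes, 6 were called higher in RLM and 1 lower, against 8.57% and 9.14% of all regions. The called regions formed 15, 16 and 4 loci on the higher side. Mitf carried most of them, with 19 of its 21 tested regions called higher against RLM and 16 against monocytes. Tfec followed with 6 of 14 in each comparison, Tfeb with 8 and 5 of 17, and Tfe3 with 0 and 1 of 5.

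**Figure D2:**
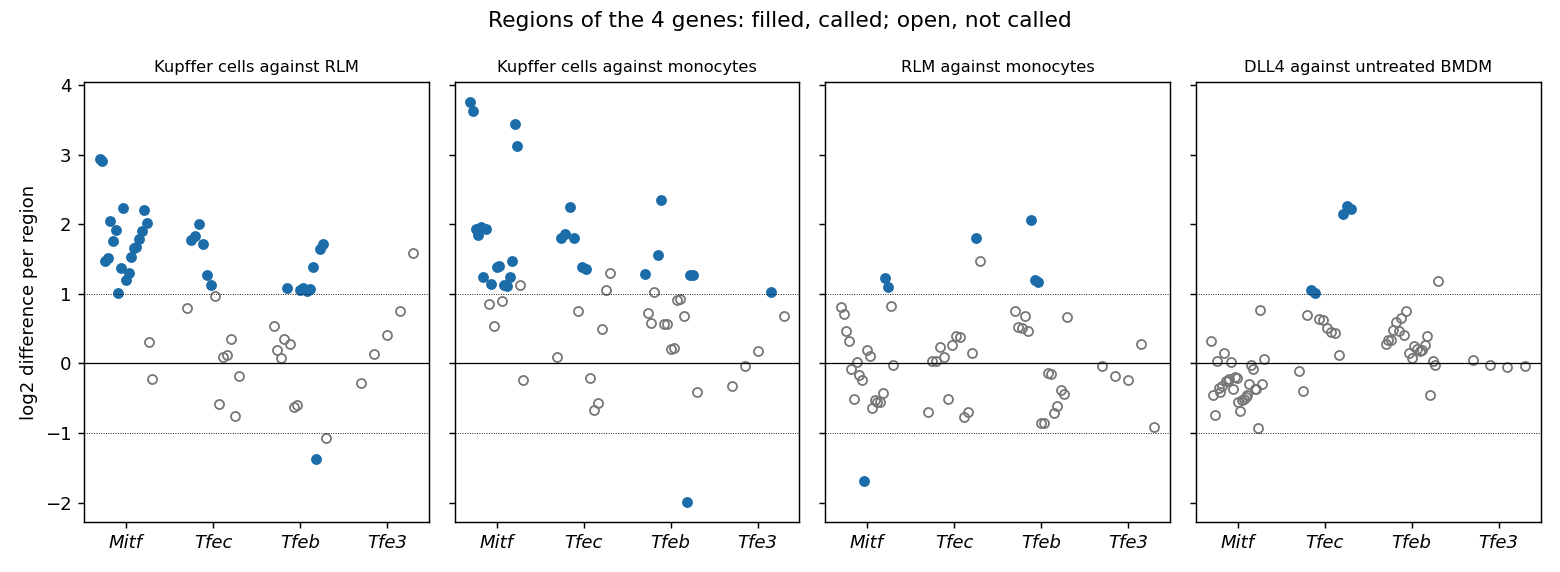
Log2 difference of H3K27ac for each tested region of the 4 genes in the 4 comparisons, with regions of a gene in genome order from left to right. Filled points were called and open points were not, and dotted lines mark 2-fold; 33 regions were called higher in Kupffer cells than in RLM, 28 than in monocytes and 6 in RLM than in monocytes, while with DLL4 the 5 called regions all lie at Tfec.

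The Mitf differences spread over the first start and the long first intron, and were largest just upstream. A region 3.11 kb upstream of the gene's first base (chromosome 6, 97802895 to 97804895) held 16.1 and 14.4 CPM in Kupffer cells, against 2.50 and 1.52 CPM in RLM and 0.83 and 1.40 CPM in monocytes. It was high in both Kupffer cell libraries and low in the other 4. The log2 difference was 2.94 (SE 0.38, adjusted p = 7.09e-10) from RLM and 3.76 (SE 0.39, adjusted p = 1.73e-13) from monocytes. The BMDM table has no region there, the nearest one further upstream lying 9.24 kb before the gene. The region nearest the first start (97805959 to 97807959) held 22.5 and 26.5 CPM in Kupffer cells, against 7.49 and 10.1 CPM in RLM and 6.20 and 6.60 CPM in monocytes, log2 differences of 1.48 (SE 0.28) and 1.94 (SE 0.28), both called.

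Inside the intron, a region 7.40 kb from the start held 14.7 and 20.4 CPM in Kupffer cells, against 3.42 and 4.98 CPM in RLM and 3.39 and 5.61 CPM in monocytes. Its log2 difference was 2.06 (SE 0.33) from RLM and 1.97 (SE 0.31) from monocytes. The highest region of the gene, 13.8 kb into it, held 43.0 and 50.6 CPM in Kupffer cells, against 25.6 and 21.0 CPM in RLM and 21.9 and 30.1 CPM in monocytes. This region was the least different of the called ones, with a log2 difference of 1.01 (SE 0.23) from RLM that came under 2-fold without Kupffer cell replicate 2 (0.90), without RLM replicate 2 (0.89) or with total tags (0.87). A cluster from 48.6 to 50.9 kb was called higher against RLM in all 5 of its regions, with log2 differences of 1.54 to 1.90.

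Between RLM and monocytes 3 Mitf regions were called, of which only the one 19.9 kb into the gene, lower in RLM, held in each fit with 1 library left out. A region 59.8 kb into Mitf (97865761 to 97867761) held 14.8 and 18.5 CPM in Kupffer cells, 5.52 and 1.93 CPM in RLM, and 1.65 and 1.40 CPM in monocytes. Kupffer cells were highest in both libraries, and the RLM libraries differed widely from each other. Kupffer cells were called higher than monocytes by 3.44 (SE 0.38) and than RLM by 2.21 (SE 0.35), and RLM higher than monocytes by 1.23 (SE 0.42, edgeR adjusted p = 0.0231), which came to 0.33 without RLM replicate 1 and was also lost without monocyte replicate 2 (1.11). The overlapping region 60.4 kb in was called higher in RLM by 1.11 (adjusted p = 0.0368), and that call was lost in 5 of the 6 fits with 1 library left out, with values of 0.61 to 1.51 over the 6, and with DESeq2 (1.12). The region 19.9 kb into the gene held 2.23 and 1.93 CPM in RLM, against 5.87 and 7.51 CPM in monocytes, and fell by 1.69 (SE 0.38, adjusted p = 0.000339) on the log2 scale. Kupffer cells held 10.5 and 9.15 CPM there, 2.23 higher than RLM (SE 0.37). At the second start of Mitf and at the third, the first table has no region over the start, and the BMDM table has 1 over the second start, with 0.74 and 0.81 CPM with DLL4 and 1.51 and 1.45 CPM in untreated BMDM.

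**Figure D3:**
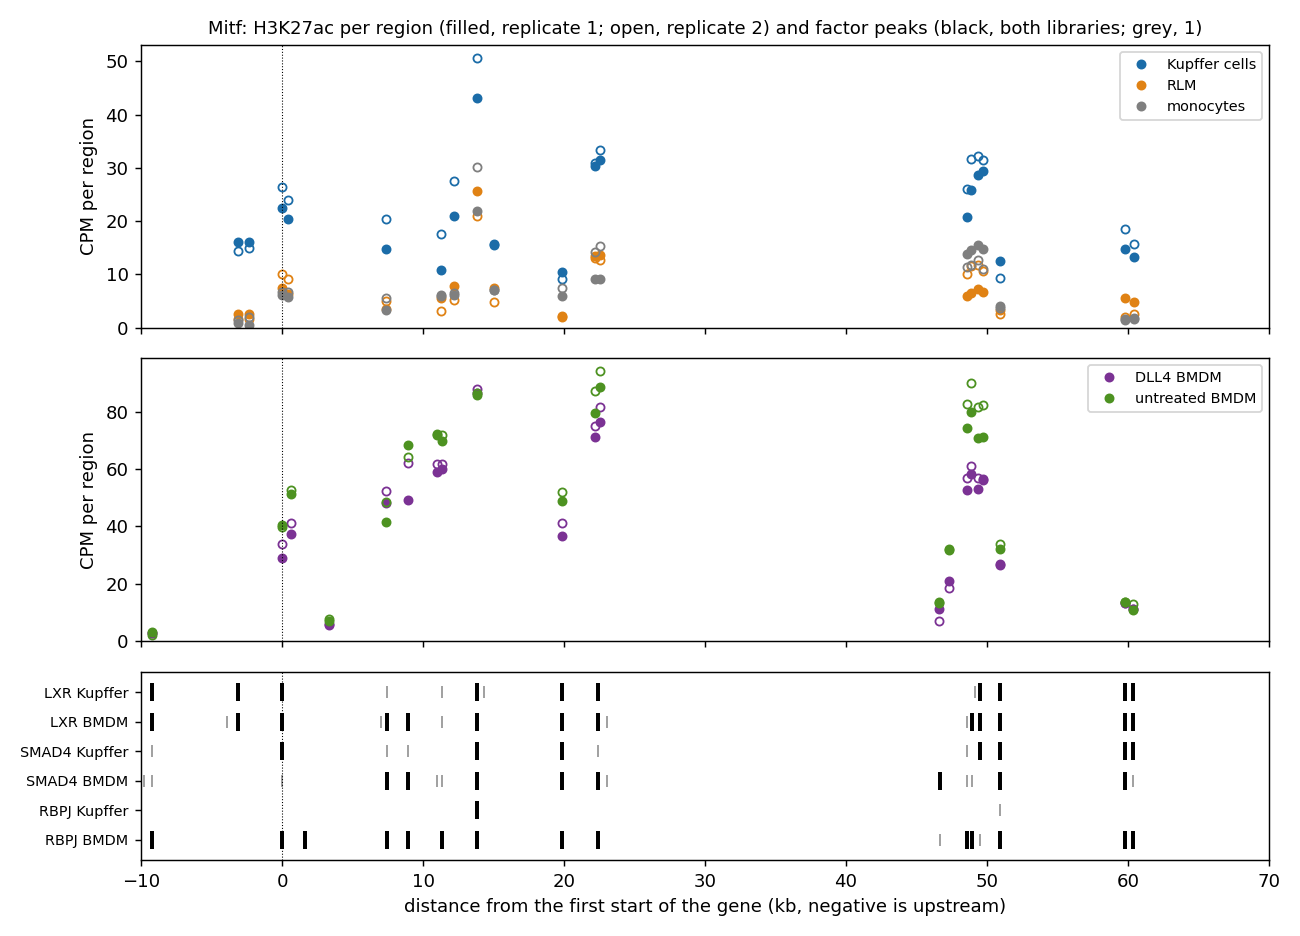
H3K27ac of each Mitf region (CPM, linear axes from 0) against its distance from the gene's first base in kb, in Kupffer cells, RLM and monocytes (top) and in BMDM with DLL4 and untreated BMDM (middle), with filled points for replicate 1 and open points for replicate 2. The bottom panel marks factor peaks, black where both libraries of a group had one and grey where 1 had; regions outside the drawn range, at most 3.11 CPM, are left out, and Kupffer cells lie above RLM and monocytes at each region drawn, from 3.11 kb upstream to 60.4 kb.

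Tfec differed at its start and in the first 15 kb of the gene. The region at the start (chromosome 6, 16897441 to 16899441), which holds the window printed above, had 23.8 and 30.3 CPM in Kupffer cells, against 13.4 and 11.5 CPM in RLM and 9.75 and 11.0 CPM in monocytes. The groups did not overlap. The log2 difference was 1.13 (SE 0.26, adjusted p = 0.000212) from RLM and 1.39 (SE 0.26, adjusted p = 3.73e-06) from monocytes, and that from RLM came under 2-fold with total tags (0.98) and without Kupffer cell replicate 2 (0.96). The region highest in Kupffer cells, 6.38 kb into the gene, held 24.8 and 34.6 CPM in Kupffer cells, against 12.5 and 5.89 CPM in RLM and 7.44 and 9.58 CPM in monocytes, log2 differences of 1.72 (SE 0.28) and 1.81 (SE 0.28). The region 8.75 kb in held 9.18 and 10.9 CPM in Kupffer cells, against 1.97 and 2.95 CPM in RLM and 2.23 and 1.98 CPM in monocytes. Its differences were the largest at Tfec, 2.01 (SE 0.38) and 2.26 (SE 0.37).

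Overlapping regions 14.3 and 14.7 kb into Tfec were higher in Kupffer cells by 1.77 to 1.87 on the log2 scale in both comparisons. The region 14.3 kb in had 21.8 and 26.3 CPM in Kupffer cells, against 8.67 and 5.08 CPM in RLM and 8.60 and 4.62 CPM in monocytes. Far upstream, a region 79.1 kb before the gene was called higher in RLM than in monocytes by 1.81 (SE 0.69, adjusted p = 0.0406), at 1.31 and 2.74 CPM in RLM and 0.66 and 0.50 CPM in monocytes. That call was lost under 8 of 11 alternatives, and the difference came to 1.16 without RLM replicate 2. The 3 regions 65.7 to 67.4 kb upstream held 2.40 to 5.48 CPM in Kupffer cells, 2.03 to 6.83 CPM in RLM and 1.65 to 8.42 CPM in monocytes and were called in none of these 3 comparisons.

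Tfeb had a mixed pattern, with regions that were highest in Kupffer cells, in RLM or in monocytes. The region of the first start (chromosome 17, 47736010 to 47738010) held 24.3 and 20.2 CPM in Kupffer cells, against 15.6 and 14.9 CPM in RLM and 9.67 and 8.42 CPM in monocytes. The 3 groups were ordered without overlap, and Kupffer cells against monocytes was called at 1.29 (SE 0.26). A region 20.2 kb into the gene (47756262 to 47758262) held 35.4 and 32.7 CPM in Kupffer cells and 30.6 and 25.3 CPM in RLM, against 5.54 and 7.76 CPM in monocytes. Both liver groups stood well above monocytes, by 2.35 (SE 0.26, adjusted p = 1.12e-12) for Kupffer cells and 2.07 (SE 0.26, adjusted p = 9.42e-10) for RLM. Next to it, regions 22.8 and 23.2 kb in were called higher in RLM than in monocytes by 1.19 and 1.17 (SE 0.27 each). The first of these held 13.6 and 12.1 CPM in Kupffer cells, 19.8 and 19.7 CPM in RLM and 8.35 and 8.92 CPM in monocytes.

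The highest Tfeb regions lay 29.8 to 33.0 kb into the gene. The one at 31.8 kb held 59.0 and 73.9 CPM in Kupffer cells, against 31.0 and 33.4 CPM in RLM and 35.5 and 35.4 CPM in monocytes. All 5 regions of this cluster were called higher in Kupffer cells than in RLM, by 1.05 to 1.39, and 4 of them came under 2-fold with total tags, at 0.90 to 0.94. None of the 5 was called against monocytes by edgeR. Beyond the end of the gene, a region 56.5 kb from the start held 13.5 and 17.6 CPM in Kupffer cells, against 3.81 and 5.59 CPM in RLM and 6.12 and 6.77 CPM in monocytes, log2 differences of 1.72 (SE 0.32) and 1.28 (SE 0.30). The matching BMDM region held 2.60 and 1.57 CPM with DLL4 and 2.67 and 1.59 CPM in untreated BMDM. In the other direction, a region 47.6 kb in, ending just before the third start, held 1.55 and 1.00 CPM in Kupffer cells, against 3.02 and 3.35 CPM in RLM and 3.88 and 5.86 CPM in monocytes. Among the 57 tested regions it was the only one called lower in Kupffer cells, at -1.99 (SE 0.46, adjusted p = 0.000138) from monocytes and -1.38 (SE 0.48, adjusted p = 0.0142) from RLM, and the call against RLM was lost without Kupffer cell replicate 2 (-1.02) or RLM replicate 2 (-1.28).

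**Figure D4:**
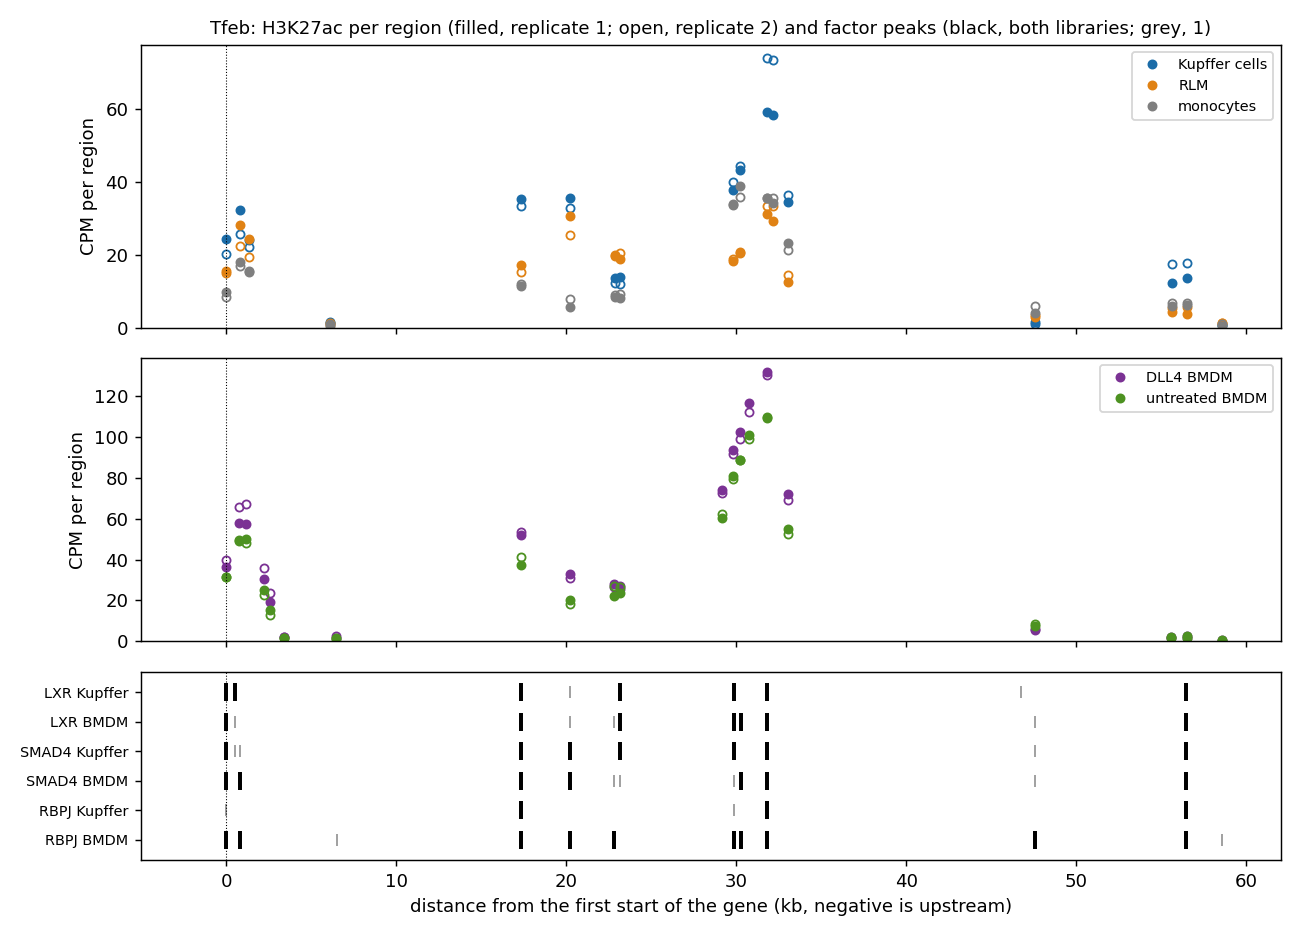
H3K27ac of each Tfeb region (CPM, linear axes from 0) against its distance from the gene's first base in kb, in Kupffer cells, RLM and monocytes (top) and in BMDM with DLL4 and untreated BMDM (middle), with filled points for replicate 1 and open points for replicate 2, and factor peaks below (black, both libraries of a group; grey, 1). The region at 20.2 kb stands high in Kupffer cells and RLM and low in monocytes, and a BMDM region 65.7 kb away is left out.

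Tfe3 had its highest H3K27ac next to its starts. The highest region (chromosome X, 7762878 to 7764878) held 31.8 and 42.2 CPM in Kupffer cells, against 33.8 and 33.7 CPM in RLM and 39.5 and 37.0 CPM in monocytes. The Kupffer cell libraries spanned the range of the other 4. Its only called region, 3.47 kb into the gene, held 4.53 and 5.40 CPM in Kupffer cells and 2.98 and 1.90 CPM in monocytes, a difference of 1.03 (SE 0.40, adjusted p = 0.0259) that was no longer called without monocyte replicate 2 (0.76), without either Kupffer cell library (1.17 and 0.90) and with DESeq2 (1.02).

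DLL4 gave the clearest change at Tfec. Summed over its regions, Tfec had 314 and 309 CPM with DLL4, against 190 and 183 CPM in untreated BMDM, a log2 difference of 0.74 (SE 0.06, adjusted p = 5.29e-18). Mitf had 930 and 981 CPM with DLL4, against 1113 and 1176 CPM in untreated BMDM, a log2 difference of -0.26 (SE 0.04, adjusted p = 7.36e-08). Tfeb had 1006 and 1020 CPM with DLL4, against 820 and 814 CPM in untreated BMDM, a difference of 0.31 (SE 0.04, adjusted p = 4.75e-10). None of these 3 differences reached 2-fold, where 2.6% of 16421 genes were called higher and 1.28% lower. Tfe3 stood at 135 and 138 CPM with DLL4, against 135 and 137 CPM in untreated BMDM (0.01, SE 0.07, adjusted p = 0.961). Hes1, a direct Notch target, stood at 71.0 and 77.8 CPM with DLL4, against 7.71 and 9.17 CPM in untreated BMDM. Hes1 was the only one called of 8 tested genes in the Notch target list, whose median log2 difference was 0.24. At an unadjusted p under 0.05, 4 of the list were higher and 1 lower, and the share of all genes at that p was not counted.

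The liver endothelial list summed to 165 to 170 CPM with DLL4 and 95.9 to 96.3 CPM in untreated BMDM, and the lymphocyte list (5 of 8 genes with regions) to 259 CPM in both DLL4 libraries and 188 to 196 CPM in untreated BMDM. Pecam1 (2.10, SE 0.10) was the only endothelial gene called of 7 tested, with a list median of 0.04. Of the 3 lymphocyte genes tested, 1 was higher at an unadjusted p under 0.05, edgeR called 0, and the median was 0.64. The part of these in the result was not tested.

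Of the 74 regions in BMDM, 69 passed the filter, and edgeR called 5 higher with DLL4 and 0 lower, as did DESeq2, where 4.89% of 82089 regions were called higher and 2.64% lower. The 5 all belonged to Tfec. At an adjusted p under 0.05 with no fold minimum, 23 were higher and 15 lower, against 12.6% and 8.77% of all regions: 10 of 14 at Tfec and 13 of 21 at Tfeb were higher, and 15 of 30 at Mitf lower. The largest change was 66.1 kb upstream of Tfec (chromosome 6, 16963540 to 16965540), at 21.5 and 20.6 CPM with DLL4, against 4.13 and 4.60 CPM in untreated BMDM. Its log2 difference was 2.26 (SE 0.17, adjusted p = 4.16e-13). The overlapping region 65.7 kb upstream differed by 2.15 (SE 0.17), and that 67.4 kb upstream, at 5.44 and 5.61 CPM with DLL4 and 1.36 and 1.01 CPM in untreated BMDM, by 2.23 (SE 0.33). In the intron, the overlapping regions 14.4 and 14.7 kb in differed by 1.02 (SE 0.18) and 1.05 (SE 0.18), and both came under 2-fold without DLL4 replicate 1 (0.87 and 0.92), without untreated replicate 1 (0.86 and 0.90) or with total tags (0.96 and 0.99). At the start itself, where Tfec H3K27ac was highest, the level was 66.0 and 66.5 CPM with DLL4 and 48.8 and 48.0 CPM in untreated BMDM, under 2-fold. That upstream locus was called in no comparison of the other table, which was counted and scaled separately.

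**Figure D5:**
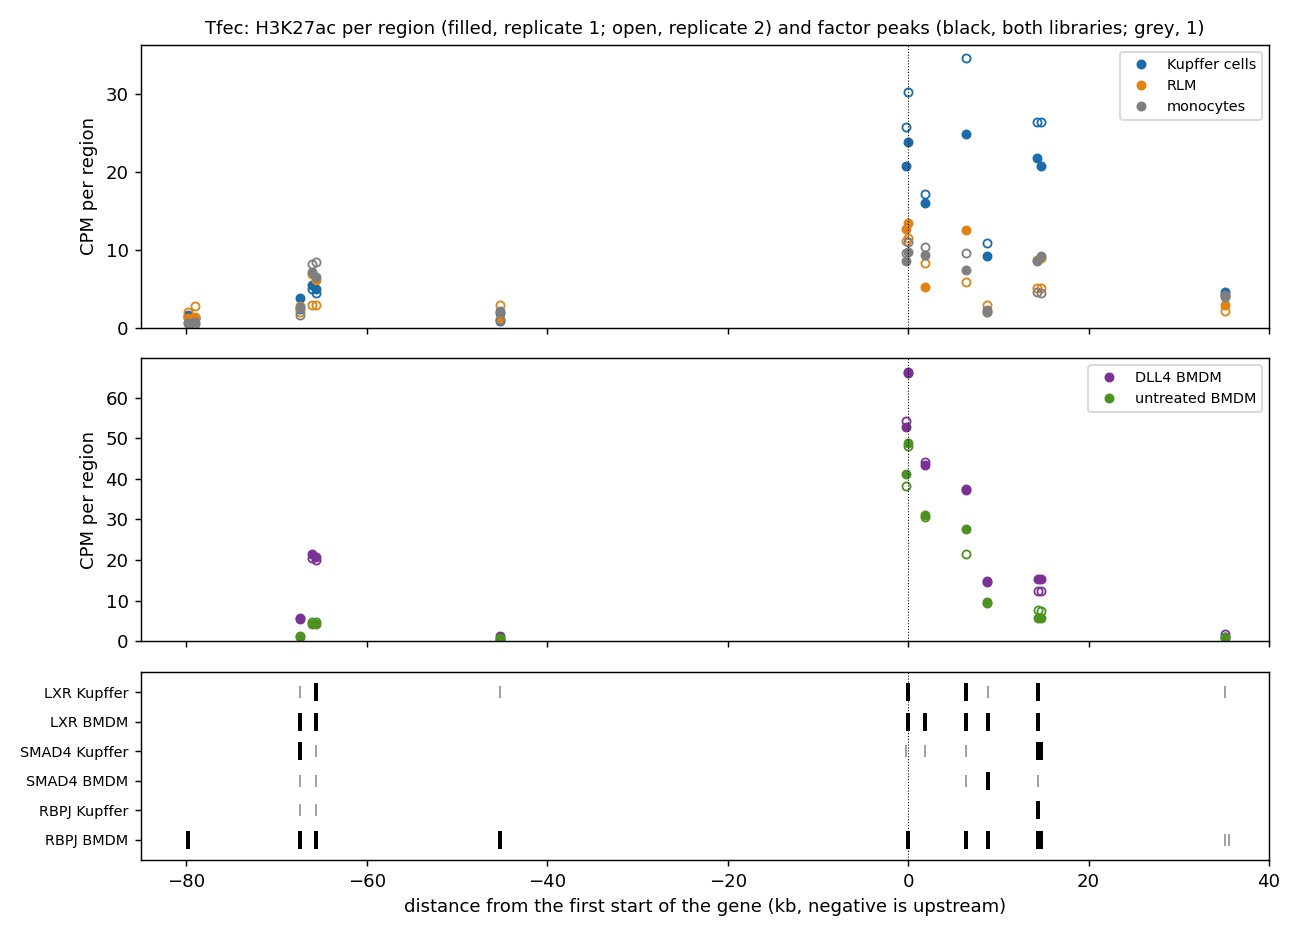
H3K27ac of each Tfec region (CPM, linear axes from 0) against its distance from the gene's first base in kb, in Kupffer cells, RLM and monocytes (top) and in BMDM with DLL4 and untreated BMDM (middle), with filled points for replicate 1 and open points for replicate 2, and factor peaks below (black, both libraries of a group; grey, 1). With DLL4 the locus near 66 kb upstream reaches 21.5 CPM, against 4.60 CPM at most at the same region in untreated BMDM, while Kupffer cells stand above RLM and monocytes from the start to 14.7 kb; BMDM regions 55.8 and 76.3 kb into or past the gene, at most 0.83 CPM, are left out.

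The highest regions of the other genes moved little with DLL4. The Mitf region 22.5 kb in, the highest of that gene in untreated BMDM, held 76.3 and 81.6 CPM with DLL4, against 88.6 and 94.1 CPM in untreated BMDM. The highest Tfeb region, 31.8 kb in, held 132 and 131 CPM with DLL4, against 109 and 110 CPM in untreated BMDM. The highest Tfe3 region, 1.35 kb in, held 47.7 and 48.9 CPM with DLL4, against 49.1 and 48.7 CPM in untreated BMDM.

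The genes whose H3K27ac pattern over the 10 libraries lay nearest to each member were Asph, Fyn and Plekhm1 for Mitf, Phc2, Tle1 and Gsr for Tfec, Lrch1, Slc44a2 and Arf3 for Tfeb, and Prr14, Spty2d1 and Hyal3 for Tfe3. The measure is the root mean square difference in log2 CPM, centred per table, which was 0.08, 0.09, 0.04 and 0.05 for the nearest gene, against a median of 0.69, 0.65, 0.50 and 0.40 over 15525 genes. These libraries share cells and processing, and the order is a description.

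Peaks of the 3 factors overlapped the regions of the 4 genes at 80 merged sites, 41 at Mitf, 16 at Tfec, 16 at Tfeb and 7 at Tfe3. A peak value is the authors' tag count per 10 M, and values are not compared between libraries of different factors. Of the 60 regions of the first table, 36 were overlapped by LXR peaks in both Kupffer cell libraries (60% against 41.2% of all regions) and 39 in both agonist-treated BMDM libraries (65% against 32.2%). SMAD4 overlapped 31 in Kupffer cell nuclei (51.7% against 35.5%) and 31 in BMDM (51.7% against 29.2%). Tfec went the other way for SMAD4, with 3 of its 14 regions overlapped in Kupffer cell nuclei (21.4%) and 1 in BMDM (7.14%), while Tfeb had 13 of 17 in each (76.5%) and Mitf 13 of 24 in each (54.2%). RBPJ overlapped 10 in Kupffer cell nuclei (16.7% against 10.9%) and 52 in BMDM (86.7% against 68.7%). In Kupffer cell nuclei RBPJ overlapped 1 of 24 Mitf regions (4.17%) and 5 of 17 Tfeb regions (29.4%). For LXR, Tfe3 had 1 of 5 regions overlapped in each group (20%), below the share of all regions. The Kupffer cell RBPJ lists held 13394 and 11277 peaks in all, against 80480 and 78976 in BMDM, and at 8-fold over input the 10 RBPJ overlaps in Kupffer cell nuclei came to 0. The headers name 1 input library for both an SMAD4 and an RBPJ library of Kupffer cell nuclei, and a NASH-diet input for the second LXR library of Kupffer cells.

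At the first start of Mitf, a site that includes the nuclear receptor half-site printed above (chromosome 6, 97806776 to 97807192) had LXR peaks of 62.3 and 73.5 tags in Kupffer cells and of 375 and 446 in agonist-treated BMDM. In the first BMDM library this was peak 110 of 42233 by score. The groups differ in agonist, culture and cell type, and the lists were called separately, so the size of the gap was not tested. The same site also had RBPJ peaks in both BMDM libraries (38.0 and 34.9 tags) and none in Kupffer cell nuclei. SMAD4 peaks stood there in both libraries of Kupffer cell nuclei (22.7 and 34.4 tags) and in 1 BMDM library (50.2 tags). The upstream site of the Kupffer cell region, 3.10 kb before the gene (97803794 to 97804008), had LXR peaks of 51.7 and 19.7 tags in Kupffer cells and of 69.1 and 114 in BMDM, and none for SMAD4 or RBPJ. The site 13.8 kb into Mitf (97820664 to 97820949) had peaks in all 12 libraries, SMAD4 with 38.5 and 34.9 tags in Kupffer cell nuclei and 79.0 and 59.6 in BMDM, and RBPJ with 7.40 and 6.62 in Kupffer cell nuclei and 56.6 and 58.9 in BMDM.

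At Tfec, a site 14.4 kb into the gene (chromosome 6, 16883938 to 16884246), in the regions that were higher in Kupffer cells and higher with DLL4, carried LXR peaks of 119 and 43.7 tags in Kupffer cells and 45.4 and 35.2 in BMDM. It also had RBPJ peaks of 11.7 and 9.65 tags in Kupffer cell nuclei and 33.7 and 37.2 in BMDM, and SMAD4 peaks of 24.8 and 40.5 in Kupffer cell nuclei and 15.8 in 1 BMDM library. The sites 65.6 and 67.4 kb upstream, where DLL4 raised H3K27ac, had RBPJ peaks in both untreated BMDM libraries (33.7 and 35.5 tags, and 29.5 and 36.0 tags) and in 1 of 2 Kupffer cell libraries (6.57 and 5.75 tags). Of all regions of the BMDM table, 69.7% were overlapped by RBPJ peaks in both BMDM libraries. Both sites also had LXR peaks in both agonist-treated BMDM libraries (41.8 and 81.6 tags, and 19.4 and 31.2 tags). SMAD4 had peaks there in 1 of 2 BMDM libraries (37.7 and 46.7 tags). In Kupffer cells, LXR and SMAD4 each had a peak at both sites in at least 1 library. RBPJ in DLL4-treated BMDM was not analysed here. At Tfeb, 3 sites had peaks in all 12 libraries, 17.4, 31.8 and 56.5 kb from the start. That at 17.4 kb held RBPJ peaks in Kupffer cell nuclei, 18.5 and 12.5 tags, against 120 and 93.2 in BMDM. That at 31.8 kb held SMAD4 peaks of 117 and 208 tags in Kupffer cell nuclei and 87.9 and 71.8 in BMDM. That at 56.5 kb, where BMDM had at most 2.67 CPM of H3K27ac, had LXR, SMAD4 and RBPJ peaks in BMDM as well. At the first start of Tfe3, LXR peaks held 27.4 and 10.3 tags in Kupffer cells and 29.2 and 29.4 in BMDM.

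Genes of the lysosome, known targets of MiT/TFE factors, carried more H3K27ac in Kupffer cells than in monocytes in 20 of 37 tested cases. Of these 37 lysosomal hydrolase and membrane protein genes, 7 were called higher against RLM and 20 against monocytes, and edgeR and DESeq2 called 0 lower in either, with 4 and 2 lower at an unadjusted p under 0.05. In RLM, 8 were higher than in monocytes, where 14.6%, 18.4% and 6.2% of all genes were called higher. Their median log2 difference was 0.65, 1.01 and 0.43, against -0.07, -0.08 and 0.07 for all genes. Leaving out 1 library gave 5 to 13 higher against RLM, with 13 without Kupffer cell replicate 1. With total tags, the counts were 2 higher against RLM, and 15 higher and 2 lower against monocytes. Lipa, the acid lipase of cholesterol ester breakdown, had 668 and 823 CPM in Kupffer cells, 318 and 308 CPM in RLM and 87.7 and 81.6 CPM in monocytes. The protease genes Ctsd (2.66, SE 0.16), Lgmn (2.41, SE 0.16) and Tpp1 (2.41, SE 0.18) were next against monocytes, and Ctsf (3.50, SE 0.51, at 9.20 and 9.03 CPM in Kupffer cells and 0.42 and 1.10 CPM in RLM), Man2b1 (1.34, SE 0.18), Lgmn (1.32, SE 0.15) and Lipa (1.25, SE 0.15) against RLM. Of 17 V-ATPase genes, the proton pump of lysosomes, 3 were higher against RLM and 4 against monocytes, among them Tcirg1 (1.05, SE 0.16, and 2.75, SE 0.17), Atp6v0d2 (1.43, SE 0.16, and 2.27, SE 0.16) and Atp6v1b2 (1.34, SE 0.15, and 1.60, SE 0.15). The V-ATPase counts were near the shares of all genes called higher, 14.6% against RLM and 18.4% against monocytes. At an unadjusted edgeR p under 0.05, 8 V-ATPase genes were higher and 2 lower against RLM, and 11 higher and 1 lower against monocytes. The share of all genes at that unadjusted p was not counted, for these or the lysosomal genes. At an adjusted p under 0.05 with no fold minimum, 4604 of 16749 genes were higher and 3859 lower against RLM. Against monocytes, 4810 were higher and 4427 lower. With total tags, 1 V-ATPase gene was called lower against RLM.

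The autophagy genes and the genes that control the factors were called no more often than all genes, of which 14.6% were higher and 12.8% lower against RLM, and 18.4% and 14.4% against monocytes. Of 23 autophagy genes, 3 were higher against RLM, Optn, an autophagy receptor gene (2.70, SE 0.27), Uvrag (1.60, SE 0.15) and Map1lc3a (1.52, SE 0.17). Against monocytes 1 was higher (Optn, 3.77, SE 0.29) and 3 were lower, Wipi2 (-2.06, SE 0.18), Atg7 (-1.46, SE 0.16) and Becn1 (-1.42, SE 0.19). The autophagy medians were 0.11 and -0.09, and total tags called 2 lower against RLM, where TMM called 0, and 5 lower against monocytes. Of 25 genes that control the factors through mTORC1 and calcineurin, 1 was higher against RLM (Lamtor3, 1.13, SE 0.18), with total tags 0 higher and 2 lower. Against monocytes 2 of the 25 were higher (Map4k3, 1.77, SE 0.19; Rragc, 1.51, SE 0.16) and 2 lower (Rheb, the activator of mTORC1, -1.24, SE 0.15; Rragb, -1.48, SE 0.64, adjusted p = 0.0481). These counts moved with single libraries, to 4 higher without monocyte replicate 1 and to 1 lower without monocyte replicate 1, RLM replicate 1 or Kupffer cell replicate 2. The lower count was 4 with total tags and 1 with DESeq2.

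Genes known as MiT/TFE targets in osteoclasts and macrophages went both ways. Of 18, 1 was higher and 4 lower in Kupffer cells against RLM, where 14.6% and 12.8% of all genes were, and the higher call, Ocstamp, was lost with total tags and without RLM replicate 2. Against monocytes 4 were higher and 2 lower, where 18.4% and 14.4% of all genes were, and total tags gave 2 higher and 4 lower. Itgb3, an integrin gene, was lower in Kupffer cells by both comparisons (-2.63, SE 0.26, from RLM and -2.50, SE 0.26, from monocytes), and so was Met, a receptor kinase gene (-1.19, SE 0.19, and -1.67, SE 0.19). Gpnmb, a lysosomal glycoprotein gene, had 13.9 and 6.95 CPM in Kupffer cells, against 57.6 and 63.3 CPM in RLM, where it was 1.94 (SE 0.24) higher than in monocytes. Acp5, the tartrate-resistant acid phosphatase, was higher than in monocytes by 2.48 (SE 0.20) in Kupffer cells and by 1.59 (SE 0.20) in RLM.

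With DLL4, 2 of these 18 target genes were called higher and 1 lower, where 2.6% and 1.28% of all genes were. Ocstamp, needed for osteoclast fusion, had 184 and 188 CPM with DLL4, against 40.7 and 38.0 CPM in untreated BMDM, a difference of 2.24 (SE 0.08), and Acp5 had 50.0 and 47.3 CPM with DLL4, against 11.1 and 13.8 CPM in untreated BMDM, 1.96 (SE 0.13). Ppargc1a, a regulator of mitochondria, was called lower, at 0.79 and 0.40 CPM with DLL4 and 1.98 and 1.80 CPM in untreated BMDM, and this call was lost with DESeq2, without either untreated library and without DLL4 replicate 2. Of the 38 lysosomal genes, 1 was called, a share like that of all genes: Ctsh, a cathepsin gene, with 326 and 316 CPM with DLL4, against 128 and 143 CPM in untreated BMDM (1.24, SE 0.06). Among the 17 V-ATPase, 23 autophagy and 25 mTORC1 and calcineurin genes, edgeR and DESeq2 called 0 in either direction with DLL4. At an unadjusted p under 0.05, 5, 8 and 6 were higher and 2, 3 and 4 lower in that list order. The share of all genes at that unadjusted p was not counted. At an adjusted p under 0.05 with no fold minimum, 2530 of 16421 genes were higher and 1782 lower.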

How the data were processed

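The authors deposited raw H3K27ac tag counts per 2000 bp region in 2 tables, with HOMER annotation, and HOMER peak lists for 3 factors. Bowtie2, HOMER and mm10 are named per the submitters' processing notes, without versions. Per the file headers, peaks were called per library at an FDR of 0.001 and at least 4-fold over input and over 10000 bp of surroundings. Their signal is tags per 10 M, their score is HOMER's, and their fold ratio is to input, all as deposited. Regions were taken within 100000 bp of a start, and a region near a gene need not act on it. Counts were tested with edgeR 4.0.16 in R 4.3.3 (filterByExpr, TMM, robust quasi-likelihood fit, all groups of a table), for regions and for sums per gene, with Benjamini-Hochberg adjustment over all features; the tables were not compared. With 2 libraries a group, an exact permutation p cannot go below 0.333. The members and lists were chosen with earlier results of these data known. Named are all 4 members, Hes1 and, from the lists, called genes among the 4 with the largest change per comparison and direction. Not all of those are named, and list calls between RLM and monocytes are given only in part. The fit was run on simulated data whose set changes all exceeded 2-fold. None of the changed features it called had the wrong sign. Smaller changes were not simulated, so this says nothing about them. Alternatives were total tags, DESeq2 1.42.0, no filter, the replicate block, 1 library left out, 2 groups only, regions within 10000 bp, non-overlapping regions, no fold minimum and stricter peaks. Replicate numbers did not pair libraries (correlations of deviations from -0.03 to 0.06). Of 34 samples, the 12 inputs were not used as libraries.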

Additional observations from a re-analysis of the deposited data

How the results depend on the processing

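With 2 libraries a group, single values set the limits, and low regions and short peak lists limit what depth can show. Total tags scaling moved the median of all genes to -0.40 and -0.37 for Kupffer cells against RLM and monocytes (-0.07 and -0.08 with TMM) and to -0.10 with DLL4 (-0.01), and gave 1549 higher and 3528 lower genes against RLM (2444 and 2142 with TMM), 2324 and 3661 against monocytes (3084 and 2411) and 349 and 293 with DLL4 (427 and 211). Under it Tfec against RLM was 0.96, and Tfe3 turned to -0.13 against RLM, -0.17 against monocytes and -0.089 with DLL4; in RLM against monocytes Mitf was 0.40 within 10000 bp and Tfec -0.0031 in the fit of 2 groups only. Tfeb against monocytes reached 1.03 within 10000 bp and 1.04 over non-overlapping regions. The cause was not tested. Regions called lower against RLM were 2 without the filter and 2 without a fold minimum; higher in RLM than in monocytes 3 in the fit of 2 groups only, and lower 4 without a fold minimum; with DLL4 3 higher with total tags, 23 higher and 15 lower without a fold minimum. At 8-fold over input, RBPJ in Kupffer cell nuclei overlapped 0 regions in either table (10 and 9 at 4-fold) and SMAD4 in BMDM 18 and 20 (31 and 35). Leaving out 1 library gave 0 to 3 regions lower against RLM, 1 to 3 lower and 4 to 5 higher in RLM than in monocytes, 3 to 5 higher with DLL4, and log2 differences of -0.047 to 0.28 for Tfe3 against monocytes, -0.13 to 0.17 for Tfec in RLM against monocytes, -0.011 to 0.025 for Tfe3 with DLL4, 1.60 to 1.74 for Mitf and 1.17 to 1.47 for Tfec against RLM, and 1.50 to 1.64 and 1.23 to 1.44 against monocytes. With the replicate block, regions higher against RLM stayed at 33, those higher in RLM than in monocytes were 5 (6 without the block), Mitf against RLM was 1.63, and no gene call of the 4 changed. Of 810 region tests under alternatives, 754 kept the call, 56 lost it and 0 reversed. These tests refit the same 75 calls, of which 18 were lost at least once.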
